A study of Mus musculus with 2 samples.

Results

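The miRNA genes Mir375, Mir7-1, Mir7-2 and Mir7b were described in the mouse adrenal gland. They were chosen by symbol in the GENCODE M21 annotation, as miRNAs of secretory neuroendocrine cells, and are 4 of the 2202 miRNA genes in each count table. The tissue was whole adrenal gland of male B6CASTF1/J mice, an F1 hybrid of the C57BL/6J and CAST/EiJ strains, at postnatal day 14. There was 1 group of 2 microRNA-seq libraries, numbered biological replicates 2 and 1, and no contrast between conditions. Each library came from its own biosample, which names 3 males, and both share 1 donor record. The sources used here do not say whether RNA of several animals was pooled, so differences between the libraries measure only the spread between these samples.

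The adrenal gland joins a steroid-producing cortex to a medulla of chromaffin cells, neuroendocrine cells that store catecholamines in granules and release them by exocytosis. miR-375 is best known from pancreatic islets, where it restrains insulin secretion and is needed for normal endocrine cell mass, and it is also abundant in the pituitary. miR-7 is a conserved miRNA of neurons and endocrine cells, known in islets as a brake on secretion and growth signalling and in brain as the miRNA bound by the circular RNA Cdr1as. A miRNA gene is transcribed as a hairpin, from which either arm, named 5p or 3p, can become the mature miRNA. Bases 2 to 8 of the mature miRNA, its seed, pair with target mRNAs.

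The mature sequences are shown because they decide which reads can be told apart between the genes. RefSeq on build GRCm38.p6 held all 4 hairpins, and each was identical to its GENCODE M21 transcript. The mature forms below are written 5′ to 3′ with the seed in capitals.
miR-7a-5p (from Mir7-1 and from Mir7-2): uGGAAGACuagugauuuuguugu
miR-7b-5p (from Mir7b): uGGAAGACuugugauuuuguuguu
miR-7a-1-3p (from Mir7-1): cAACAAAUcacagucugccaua
miR-7a-2-3p (from Mir7-2): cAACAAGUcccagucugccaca
miR-7b-3p (from Mir7b): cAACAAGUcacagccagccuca
miR-375-5p (from Mir375): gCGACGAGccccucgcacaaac

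The 5p arms of the miR-7 genes formed a single seed family. miR-7a-5p and miR-7b-5p had the same seed, GGAAGAC, and differed over 23 compared bases by A10U, counted from the 5′ end with the miR-7a-5p base first, while miR-7b-5p was 1 base longer. Among the 1679 mature names in the RefSeq table, only these had that seed. The 3p arms were less alike. From miR-7a-1-3p to miR-7a-2-3p there were 3 substitutions, A7G, A10C and U21C, the first of which lies in the seed. As a result miR-7a-2-3p shared its seed, AACAAGU, with miR-7b-3p, and miR-7a-1-3p did not. The other mature form of Mir375 is miR-375-3p, the arm known as its functional product. The RefSeq sequences used held no entry for it, so its sequence is not shown and its seed was not compared. The seed of miR-375-5p occurred in no other mature entry.

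In the hairpins, written 5′ to 3′ with the arms listed above in capitals, the miR-7 genes differ mainly outside the 5p arm.
Mir7b: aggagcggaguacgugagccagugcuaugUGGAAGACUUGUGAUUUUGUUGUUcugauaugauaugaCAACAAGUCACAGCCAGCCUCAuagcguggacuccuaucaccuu
Mir7-1: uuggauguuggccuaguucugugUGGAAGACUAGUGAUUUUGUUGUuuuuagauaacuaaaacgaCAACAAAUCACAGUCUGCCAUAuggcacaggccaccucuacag
Mir7-2: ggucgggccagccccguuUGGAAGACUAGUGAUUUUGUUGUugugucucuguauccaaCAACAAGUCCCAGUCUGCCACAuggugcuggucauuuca
Mir375: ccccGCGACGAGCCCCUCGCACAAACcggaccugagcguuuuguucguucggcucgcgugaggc

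Mir7-1 and Mir7-2 shared an unbroken stretch of 24 bases, which begins at the first base of miR-7a-5p and runs 1 base past its end. A read of exactly miR-7a-5p therefore matches both genes equally well, and the tables list multimapping reads, those with several places in the genome, in a summary row apart from the genes. How many miR-7a-5p reads that row holds was not measured. Mir7b shared at most 14 unbroken bases with either of them. Of the 20-base windows of the hairpins, 5 of 89 in Mir7-1 and 5 of 78 in Mir7-2 occurred in another miRNA gene, against 0 of 92 in Mir7b and 0 of 45 in Mir375. The counts of Mir7-1 and Mir7-2 given below may thus omit reads of miR-7a-5p and were not read as its level. GC content was 67.2% in the Mir375 hairpin and 46.8%, 41.7% and 50.5% in those of Mir7b, Mir7-1 and Mir7-2.

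**Figure D1:**
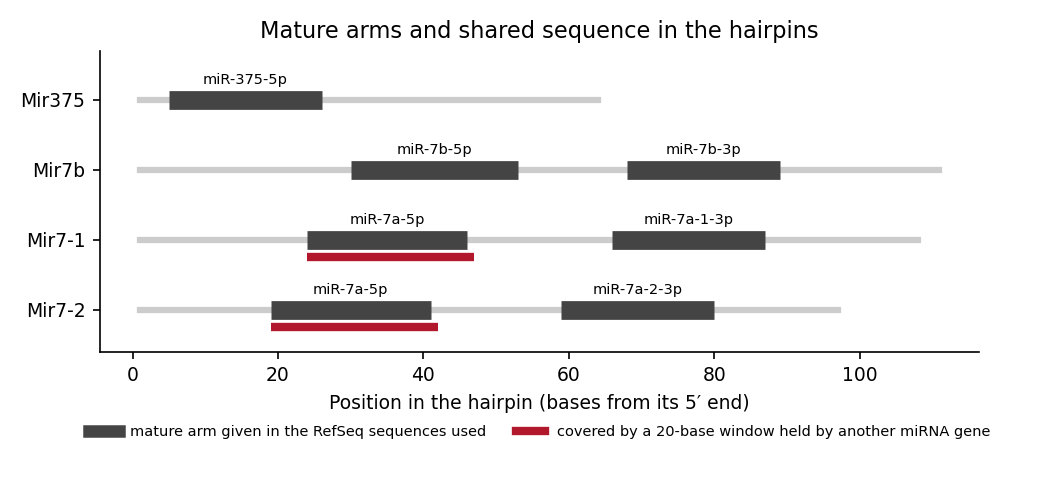
Each grey line is 1 hairpin on an axis of bases from its 5′ end, dark blocks are the mature arms given in the RefSeq sequences used, and red lines mark bases covered by a 20-base window that another miRNA gene also holds. The red line spans 24 bases over miR-7a-5p in Mir7-1 and Mir7-2, and there is none on Mir7b or Mir375.

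The genes lie on different chromosomes of mm10. Mir375 is at chr1:74900658-74900721 on the minus strand, in no other annotated gene, with 7514 bases between it and Cryba2 and 1349 between it and Cfap65. Mir7-1 is at chr13:58392779-58392886 on the minus strand, in an intron of Hnrnpk, which encodes an RNA-binding protein and is transcribed from the same strand. Mir7-2 is at chr7:78888277-78888373 on the plus strand, between genes, and the nearest protein-coding gene, Aen, begins after a gap of 7480 bases. Mir7b is at chr17:56242988-56243098 on the plus strand and overlaps no other gene. The long non-coding RNA AC026385.1 ends 182 bases before it on the same strand.

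Levels are sense read counts scaled to the total over all miRNA genes of the library, and given as CPM. Totals were 3464837 counts in replicate 2 and 3024662 in replicate 1, so that 1 count was worth 0.289 and 0.331 CPM. In both libraries all 4 genes reached 2 CPM, the limit used for detection, as did 364 of the 2202 miRNA genes. Counts on the opposite strand were 0 for each of the 4 genes in both libraries, which allows up to 0.866 CPM in replicate 2 and 0.992 CPM in replicate 1. A short read usually spans a whole mature miRNA, so counts were not divided by the hairpin length in the main values. Intervals are exact 95% intervals and cover the error of counting alone, not the spread between samples. Copies made by PCR count as separate reads, so the intervals may be too narrow even for counting error.

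Mir375 was by far the most abundant of the 4. It had 102532 counts, or 29592 CPM, in replicate 2 and 80501 counts, or 26615 CPM, in replicate 1. The mean was 28104 ± 2105 CPM (SD, n = 2), and both libraries lay close to it. Its share of miRNA counts was 2.96% in replicate 2 (2.94 to 2.98) and 2.66% in replicate 1 (2.64 to 2.68). By mean level it was 11th of all miRNA genes, with rank 11 in replicate 2 and rank 10 in replicate 1, and its level was 257 and 243 times the median of the detected genes.

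Mir7b came next. It had 14939 counts, or 4312 CPM, in replicate 2 and 12462 counts, or 4120 CPM, in replicate 1, a mean of 4216 ± 135 CPM. It ranked 37 in replicate 2 and 38 in replicate 1, with shares of 0.431% (0.424 to 0.438) and 0.412% (0.405 to 0.419). Among the miR-7 genes it was the one whose 5p arm is told apart from the others by a base in the middle of the sequence, as shown above.

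Mir7-1, the copy in the Hnrnpk intron, had 1052 counts, or 304 CPM, in replicate 2 and 963 counts, or 318 CPM, in replicate 1. Its mean was 311 ± 10.4 CPM, at rank 131 by mean level. Mir7-2 had 257 counts, or 74.2 CPM, in replicate 2 and 249 counts, or 82.3 CPM, in replicate 1, with a mean of 78.2 ± 5.76 CPM and rank 199. It was the only one of the 4 below the median of the detected genes, at 0.644 times that median in replicate 2 and 0.752 times in replicate 1. Reads that lie within the stretch these genes share would be missing from both values where they were treated as multimapping.

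**Figure D2:**
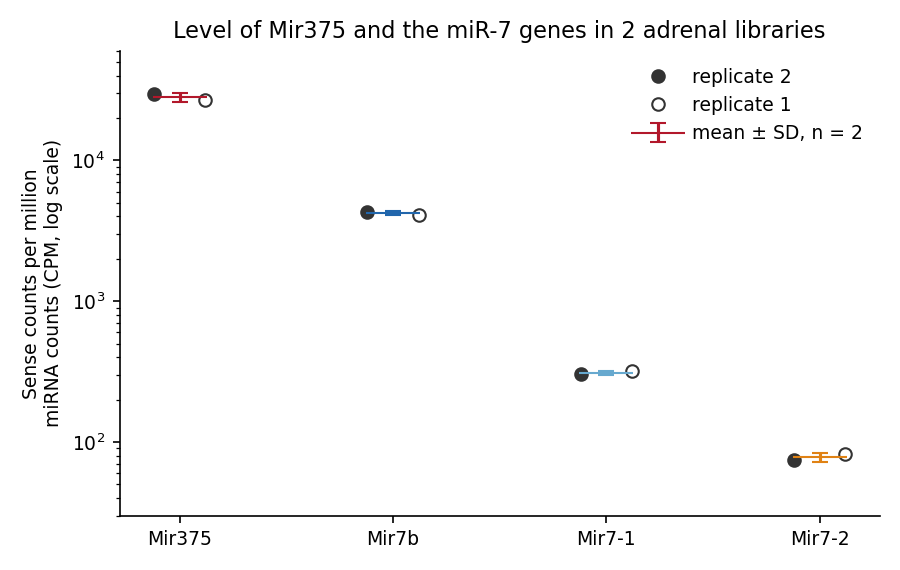
The vertical axis gives the level of each gene in CPM on a log scale. Filled circles are replicate 2, open circles replicate 1, and bars the mean ± SD with n = 2. The gaps between the genes, from a mean of 28104 CPM for Mir375 to 78.2 CPM for Mir7-2, are far wider than the gaps between the libraries.

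The order Mir375, Mir7b, Mir7-1 and Mir7-2 was the same in both libraries. The ratio of Mir375 to the summed miR-7 counts was 6.31 in replicate 2 (6.21 to 6.42) and 5.89 in replicate 1 (5.78 to 5.995), with a mean of 6.10 ± 0.299. These intervals do not overlap, and the ratio does not depend on how the libraries are scaled. Divided by the annotated hairpin length, 64 bases for Mir375 and 97 to 111 for the miR-7 genes, the mean ratio was 10.5. Of the reads placed at Mir7b, Mir7-1 or Mir7-2, Mir7b held 91.9% in replicate 2 (91.5 to 92.4) and 91.1% in replicate 1 (90.6 to 91.6). Mir7j, a gene of similar symbol outside the 4, had 195 counts in replicate 2 and 229 in replicate 1. It is in none of the miR-7 sums. Mir7-1 held 6.47% and 7.04%, and Mir7-2 1.58% and 1.82%. Mir7-1 exceeded Mir7-2 by 4.09-fold in replicate 2 (3.57 to 4.71) and 3.87-fold in replicate 1 (3.36 to 4.46), and these intervals overlap. Where miR-7a-5p reads were treated as multimapping, the share of Mir7b may be too high and the ratio of Mir375 to miR-7 too high as well. Multimapping reads of all kinds numbered 2497097 in replicate 2 and 1972020 in replicate 1.

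**Figure D3:**
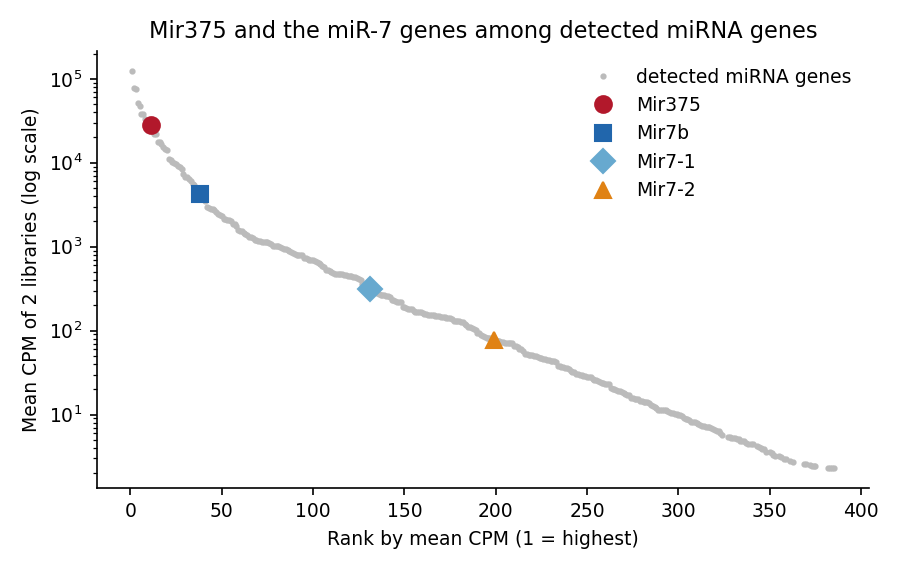
The horizontal axis is the rank of each detected miRNA gene by mean CPM and the vertical axis the mean CPM of the 2 libraries on a log scale. Mir375 at rank 11 and Mir7b at rank 38 sit on the steep left part of the curve, and Mir7-1 at rank 131 and Mir7-2 at rank 199 on the shallow middle part.

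Several of the neighbours in level were much less even between the libraries. The genes next to Mir375 were Mir451a, a miRNA of red blood cells, at 29477 ± 17467 CPM and Mir26b at 28142 ± 16469 above it, and Mir122, the main miRNA of hepatocytes, at 26630 ± 32307 below it. None of these differed from Mir375 by more than the SDs added together, and each changed sides with it between the libraries. Mir23b at 21967 ± 3981 CPM was below Mir375 in both. Mir7b was not separable from Mir541 and Mir744 above it or Mir98 below it, while Mir100 at 3920 ± 91.0 CPM was lower in both libraries. By the same measure Mir7-1 was not separable from its neighbours Mir503, Mir381, Mir29c and Mir330, although Mir330 was lower than Mir7-1 in both libraries. The same held for Mir7-2 and its neighbours Mir199b, Mir496a, Mir874 and Mir378c. With 1 condition, genes of similar pattern could not be sought, so these neighbours were named by level alone.

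The libraries differed little in these genes. Mir375 was 1.11-fold higher in replicate 2 (1.10 to 1.12). An exact two-sided binomial test of the counts, adjusted by Benjamini-Hochberg over 413 miRNA genes with 10 or more counts, called it at adjusted p = 1.07e-111. That test compares these libraries, not conditions. Over the alternatives tried, the log2 ratio of Mir375 ran between 0.02 and 0.22 and its adjusted p between 1.70e-231 and 0.0194. Mir7b was 1.05-fold higher in replicate 2 (1.02 to 1.07, adjusted p = 0.000486 by the same exact test). With library totals from unstranded counts the direction turned, and that test called Mir7b lower in replicate 2 (log2 ratio -0.07, adjusted p = 0.000169). With TMM library sizes Mir7b was not called (adjusted p = 0.0503). Its adjusted p ran between 9.40e-14 and 0.0503 over the alternatives.

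Mir7-1 had a ratio of 0.954 (0.873 to 1.04, adjusted p = 0.401 by the exact test), and Mir7-2 a ratio of 0.901 (0.754 to 1.08, adjusted p = 0.346). With unstranded counts Mir7-1 was called lower in replicate 2 (adjusted p = 0.0036, log2 ratio -0.20), against adjusted p between 0.0036 and 1.0 over all alternatives. At these depths a difference of Mir7-2 smaller than its interval was not detectable. By the exact test 2 of the 4 genes, Mir375 and Mir7b, were called, both higher in replicate 2 except that Mir7b turned with unstranded counts. Of all 413 genes tested, 55.4% were called in either direction and 28.8% were called higher in replicate 2. With unstranded counts, in which genes with another gene on the opposite strand lose counts, the split over all genes was 74 higher and 139 lower, against 119 and 110.

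In size, the differences were small beside those of other genes. The 4 ratios ran from 0.901 to 1.11. Their median absolute log2 ratio was 0.109, against 0.405 over all genes tested. With the sign kept, the median log2 ratio was -0.0015, against 0.03, because the 4 genes differed in direction. Over the 189 miRNA genes at 100 CPM or more, the median difference in either direction was 1.25-fold. Of those 189, 50 differed by less than Mir375, 25 by less than Mir7b and 26 by less than Mir7-1. Mir7-2, whose mean is below 100 CPM, had a difference that exceeded that of 50 of them. The SD was 7.49% of the mean for Mir375, 3.21% for Mir7b, 3.36% for Mir7-1 and 7.36% for Mir7-2, and its median over the 189 genes was 15.9%. The biological coefficient of variation of the series, estimated by edgeR over 413 genes, was 38.0%.

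**Figure D4:**
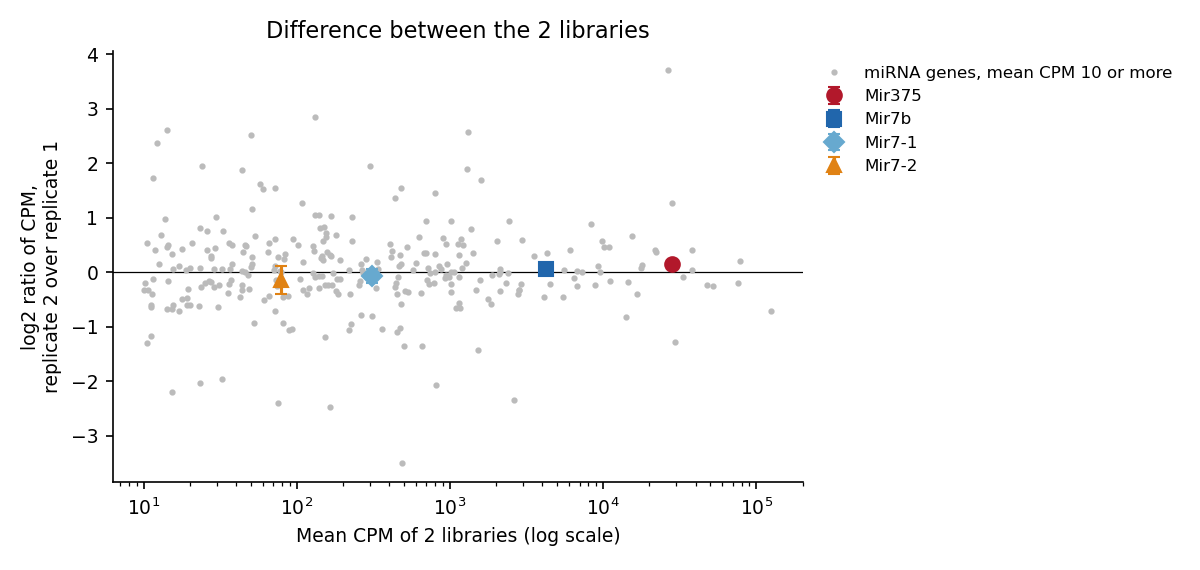
The horizontal axis is the mean CPM on a log scale and the vertical axis the log2 ratio of CPM, replicate 2 over replicate 1, for miRNA genes at a mean of 10 CPM or more. Bars on the coloured symbols are exact 95% counting intervals. The 4 coloured symbols lie near 0, with log2 ratios between -0.15 and 0.15, while Mir122 lies at 3.71.

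Other miRNAs linked to endocrine, islet and neuronal cells were read from a list of 23 measured genes that does not hold the 4 above. In it 17 genes were detected. By the exact test 10 of 17 were called higher in replicate 2, 4 were called lower and 3 were not called. The 10 are not all independent. Mir200a, Mir200b and Mir429, close together on chromosome 4, had the largest ratios, at 6.11, 5.72 and 3.68. Mir182 and Mir183, close together on chromosome 6, were also among the 10. Mir200c and Mir96 were called lower. Over all genes 28.8% were called higher and 55.4% were called in either direction. With unstranded counts the split in the list was 6 higher and 4 lower of 16 tested, beside 74 higher and 139 lower over all genes. The median log2 ratio of the list was 0.34, while its summed level was lower in replicate 2, at 31145 CPM against 36484 CPM in replicate 1. Most of that sum came from the most abundant members, Mir335 and Mir127, which were both lower in replicate 2. Mir335, in the imprinted Mest gene, was at 14344 CPM in replicate 2 and 18826 CPM in replicate 1. Mir127, of the imprinted Dlk1-Dio3 region, was at 13585 and 15477 CPM. Both were thus below Mir375 in each library. Mir182, a sensory and islet miRNA, was at 1751 and 1006 CPM, and Mir137, a neuronal miRNA, at 882 and 816 CPM.

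The remaining members reached at most 92.9 CPM in replicate 2 and 73.4 CPM in replicate 1, which is near the level of Mir7-2. Mir124a-1, Mir9-1 and Mir9-3, from families of neuronal miRNAs, had 2, 1 and 1 counts in replicate 1 and 0 in replicate 2. Mir124a-2, Mir124a-3 and Mir9-2 had 0 counts in both. All 6 of these genes, and 10 of the 23 in all, have 20 or more bases in a row in common with some other hairpin. Their counts may thus omit multimapping reads.

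The cell of origin of these miRNAs was not measured, since the tables hold no mRNA of chromaffin or cortical cells and the gland was sequenced whole. In such bulk RNA more cells of a type and more RNA per cell cannot be told apart. The summed level of each fixed list of markers of other cell types differed more between the libraries than any of the 4 genes did. For striated muscle this rested on few counts. Mir122, the hepatocyte marker, was at 49475 CPM in replicate 2 and 3786 CPM in replicate 1. The endothelial markers, 2 of 2 detected, summed to 94739 and 155649 CPM, and the erythroid markers, 2 of 2 detected, to 19179 and 43922 CPM. The leukocyte markers, 4 of 4 detected, summed to 1710 and 3466 CPM, and the mesenchymal markers, 4 of 5 detected, to 45497 and 53093 CPM. Not every gene moved with the sum of its list. Mir144 was level, at 2053 and 2093 CPM, so the erythroid difference lay in Mir451a. Mir223 was higher in replicate 2, at 89.5 and 31.1 CPM, while the leukocyte genes Mir142, Mir150 and Mir155 were lower. Mir214 was also higher in replicate 2, at 881 and 703 CPM, against the mesenchymal sum. Mir126b, on the strand opposite Mir126a, was higher as well, but at only 6.93 and 2.31 CPM. The endothelial sum was thus almost all Mir126a. The list named for kidney epithelium, 4 of 4 detected, summed to 383 and 101 CPM. Most of that sum was Mir192, at 231 and 32.1 CPM, and Mir194-2, at 107 and 36.7 CPM. These are also grouped with miRNAs of hepatocytes and gut, so the sum is not particular to kidney. Mir204 of the same list was at 42.4 and 29.4 CPM. The striated muscle markers, 1 of 5 detected, summed to 9.52 and 6.28 CPM, and Mir133a-1, Mir133a-2 and Mir1a-1 were at 0. The detected gene, Mir206, had 33 counts in replicate 2 and 18 in replicate 1. It was not called by the exact test (ratio 1.60, 0.875 to 3.02, adjusted p = 0.186). A larger difference than in the 4 genes was thus not shown for muscle. Of these 5 muscle genes, 4 share 20 or more bases in a row with another hairpin, the 3 at 0 among them. The part of the markers in the differences of the 4 genes was not tested. With Mir122 left out of the totals, the log2 ratio of Mir375 was 0.22 and that of Mir7b 0.13, against 0.15 and 0.07.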

How the data were processed

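MicroRNA-seq was deposited for 2 adrenal libraries. The authors deposited raw, unnormalized read counts for each miRNA gene, on mm10 with annotation M21, per the deposited notes. Which aligner and counter were used, and how they were set, is not stated in these sources. Of 3 count columns, the one on the strand of the gene was used. The 4 summary rows stayed out of totals. They held 59.1% of reads in replicate 2 and 57.8% in replicate 1. Arms are not separated in the tables.

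Counts were scaled to CPM over miRNA genes and given as mean and SD. The exact binomial test was run over all genes with 10 or more counts, adjusted by Benjamini-Hochberg at 0.05, after being tested on simulated data. The simulated libraries held counting error only, and their scaling was known. They could not show how the test behaves with the spread between real samples. Levels were not tested, as 2 libraries allow an exact sign-flip test no smaller value than p = 0.5. Intervals are Clopper-Pearson intervals and the conditional intervals of ratios built on them.

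The genes, lists, tests and alternatives were chosen with earlier results of these data known. Named genes were the 4 genes, the nearest 2 in level on each side, genes sharing a seed, hosts, and the 4 highest of a fixed list. Members of the miR-124, miR-9, miR-133 and miR-1 families with few or 0 counts were named after their values were seen, and markers by their lists. Mir7j, Mir200a, Mir200b, Mir200c, Mir429, Mir183 and Mir96 were also named after their values were seen. Sequences are from RefSeq GRCm38.p6. The alternatives were unstranded counts, other totals, TMM and DESeq2 size factors, hairpin length, each library alone, other detection limits and no minimum count.

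Python 3.11.15, SciPy 1.17.1, R 4.3.3, edgeR 4.0.16 and DESeq2 1.42.0 were used.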

Additional observations from a re-analysis of the deposited data

Results flagged for a closer look

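Reads that map to several places are listed in a summary row apart from the genes. They were taken as counted in no gene, and so as outside every value given for the 4 genes. They were 29.4% of reads in replicate 2 and 27.5% in replicate 1. No control sample exists for comparison. A group of 2 libraries is too small to look for a library that stands apart.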

How the results depend on the processing

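With unstranded counts the mean levels were 38160 CPM for Mir375, 5733 for Mir7b, 424 for Mir7-1 and 107 for Mir7-2. The counts of the 4 genes are the same in both columns, so this shift comes from the smaller totals. The log2 ratio of each of the 4 genes shifted by -0.14, which was also the median shift over the tested genes, and that of Mir7b became -0.0699. With totals that leave out genes sharing a 20-base stretch, the means were 33570, 5034, 371 and 93.3 CPM in the same order of genes. Counts per annotated base gave a ratio of Mir375 to miR-7 of 10.5. The number of the 4 genes called was 1 with TMM library sizes, where Mir7b was lost, and 3 with unstranded counts, where Mir7-1 was gained, against 2. Leaving out a library gives the other library's value, 26615 to 29592 CPM for Mir375. Of the 68 alternative values, 55 stayed within the limit set for their kind. For a ratio between the libraries the limit was the same direction and call. It was 1 SD for a level, ratio or share, and 1.5 times for a count of genes. Some of the 55 could not have moved. With 2 libraries, either library alone always lies within 1 SD of the mean. The ratio of Mir375 to miR-7 and the share of Mir7b cannot change with unstranded counts, because the 4 genes have the same counts there. All 4 genes were detected at limits of 1 and 10 CPM. No paired analysis was possible because there is 1 group. Depth limits Mir7-2, with 257 and 249 counts, most.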
